A study of Aspergillus niger with 6 samples.

Results

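The early part of a citrate fermentation was described by comparing gene expression at 12 h with that at 6 h in Aspergillus niger strain H915-1, a filamentous fungus. The genes compared were those with at least 1 FPKM at 6 h, at 12 h or at both. FPKM, used as deposited, stands for the fragments of a gene relative to its length and to the depth of the library. Compared were 8886 of the 9953 genes listed in the time course and of 10257 genes in the whole series. RNA was taken from pellets at 6, 12, 24, 36 and 48 h under an air supply of 3 vvm (air volumes per culture volume each minute), and at 48 h under 1.5 vvm. Every group was the same strain and had 1 library, so no difference below has a replicate check and no p-value was computed. The sources used here do not give the culture medium or how the culture was started.

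Aspergillus niger makes citrate from sugar through glycolysis and the first step of the citric acid cycle and exports it into the medium. In such a culture the fungus first builds up biomass and then turns more of the sugar into acid. Fungal genes that serve one pathway, for instance the making of a secondary metabolite or the use of one nutrient, often lie next to each other on a chromosome and are expressed together. The deposited identifiers come without gene names, and none of them matched the 14404 genes of the RefSeq table for assembly ASM285v2, so genes are given here by contig and position and no function is assigned.

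Library depth was 5062817 fragments at 6 h and 5199184 at 12 h, and between 5298533 and 6708034 in the other 4 libraries. The 6 and 12 h libraries shared 7 of their 10 genes of highest FPKM, 76 of their top 100 and 407 of their top 500. Of the 8886 genes, 8343 reached 1 FPKM in both libraries, 280 at 6 h alone and 263 at 12 h alone. A gene that passed in 1 library alone was bound to differ, so its difference is part of how it was kept.

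Most genes had a similar level at both times, and the rest divided almost equally by direction. Of those compared, 681 genes (7.66%) were 2-fold or more higher at 12 h than at 6 h, and 631 (7.10%) were 2-fold or more lower. Another 5997 genes (67.5%) differed by less than 1.5-fold. The log2 change, taken as the log2 ratio of FPKM + 1, had a median of -0.01 and its quartiles were -0.39 and 0.37. The scale with 1 FPKM added understates the change of genes at low level, and with 5 FPKM added 404 genes were higher and 379 lower.

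The tails were as even as the middle. At least 1.5-fold higher were 1424 genes (16%), and at least 1.5-fold lower were 1465 (16.5%). At 4-fold the counts were 164 higher (1.85%) and 148 lower (1.67%), and at 8-fold 50 higher (0.563%) and 50 lower (0.563%). At 16-fold 24 genes were higher (0.270%) and 26 lower (0.293%). This balance depended on the scaling of the libraries. The FPKM values of a library summed to 1013728 at 6 h and 925568 at 12 h, and with both set to 1 sum the counts were 850 higher and 516 lower, so that 62.2% of the genes past 2-fold were higher and not 51.9%, and the median log2 change was 0.11.

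**Figure D1:**
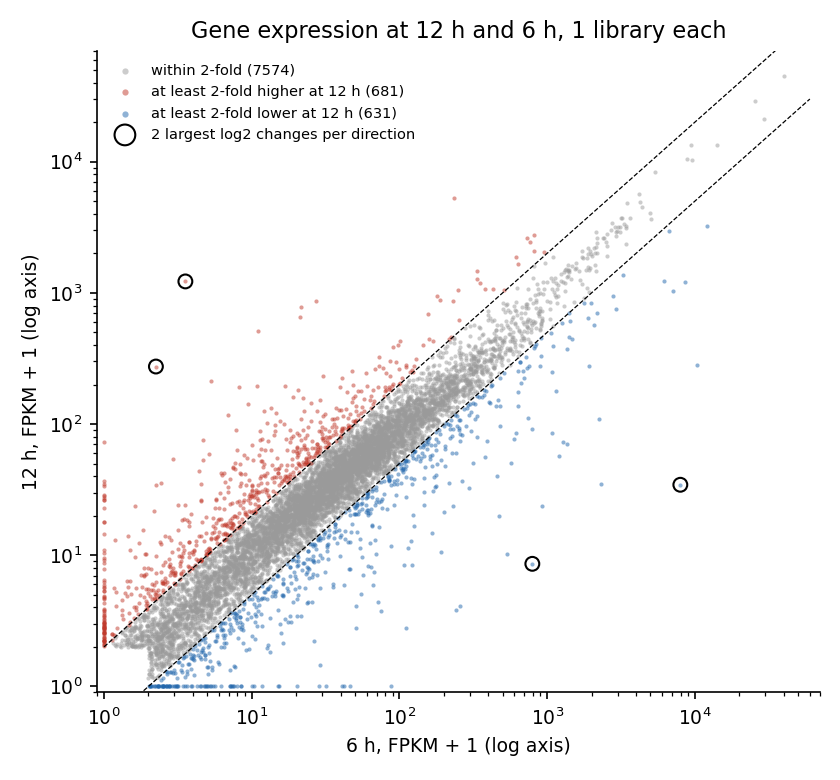
FPKM + 1 of each of the 8886 genes at 6 h (x axis) and 12 h (y axis), both on log axes, with 1 library per time and dashed lines at 2-fold on this scale. The 681 genes higher at 12 h and the 631 lower ones lie on both sides of a dense diagonal, and the 4 circled genes have the 2 largest log2 changes in each direction where 10 FPKM or more was reached in either library.

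The fragments behind these genes set how far each difference can be read. Genes higher at 12 h had a median of 125 fragments there and 34 at 6 h, and genes lower at 12 h had a median of 107 fragments at 6 h and 33 at 12 h. For 585 of the 681 higher genes and 530 of the 631 lower genes, the exact 95% counting interval of the fragment ratio lay wholly on the side of the difference. It lay wholly past 2-fold for 316 and 279 genes. The same 2 libraries chose these genes, so many intervals were bound to lie on that side. These counts describe the fragments behind the choice and do not check it. These intervals cover counting error and leave out the variation between cultures, which 1 library per time cannot show.

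At the low end, 53 higher and 55 lower genes had at most 3 fragments in the library where they were higher. Their spans were short, with medians of 420 and 444 bases, and in short genes a single fragment can stand for many FPKM. The gene on unitig_1 from 236714 to 236896 was listed at 43.5 FPKM at 6 h and 111 at 12 h, from 1 and 3 fragments. Deposited FPKM of such short genes were larger than fragments divided by span and depth. Of the 65 genes with spans up to 300 bases, 22 (33.8%) were higher and 17 (26.2%) lower at 12 h. Of the 492 with spans over 4000 bases, 29 (5.89%) were higher and 11 (2.24%) lower. With a minimum of 10 fragments in 1 of both libraries, a step added after the values were seen, 583 genes were higher and 525 lower.

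The 2 largest increases, on the log2 scale, were in neighbouring genes. The first (contig 1, 4273945 to 4275212) was at 2.56 FPKM at 6 h against 1220.5 at 12 h, and 901, 688 and 851 at 24, 36 and 48 h. It had 12 fragments at 6 h and 5843 at 12 h, which relative to depth was 474-fold higher (95% counting interval 271 to 918). The next one along (contig 1, 4275706 to 4282511) was at 1.25 FPKM at 6 h against 273 at 12 h, and 222, 237 and 243 at 24, 36 and 48 h. It had 41 and 9141 fragments at 6 and 12 h, or 217-fold more (160 to 303). Both genes were low in the 6 h library and high in each of the other 4 at 3 vvm.

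The gene before this pair had the same course, and the genes after it did not. The gene from 4269213 to 4271050 was at 20.1 FPKM at 6 h against 658 at 12 h, and 639, 606 and 604 at 24, 36 and 48 h. The gene after the pair, from 4283317 to 4283854, was at 210 FPKM at 6 h against 391 at 12 h, then 446 at 48 h, just under 2-fold at 12 h relative to 6 h. Beyond it, the gene from 4293928 to 4295529 had 0 fragments at 6 h and 1 at 12 h, and reached 26.5 FPKM by 36 h and 92.6 by 48 h. Its neighbour from 4291566 to 4292770 likewise had 0.20 FPKM at 12 h, and 5.82 and 29.7 at 36 and 48 h. The block therefore held 3 genes that were high by 12 h and 2 genes a short way along that were first above 5 FPKM at 36 h.

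**Figure D2:**
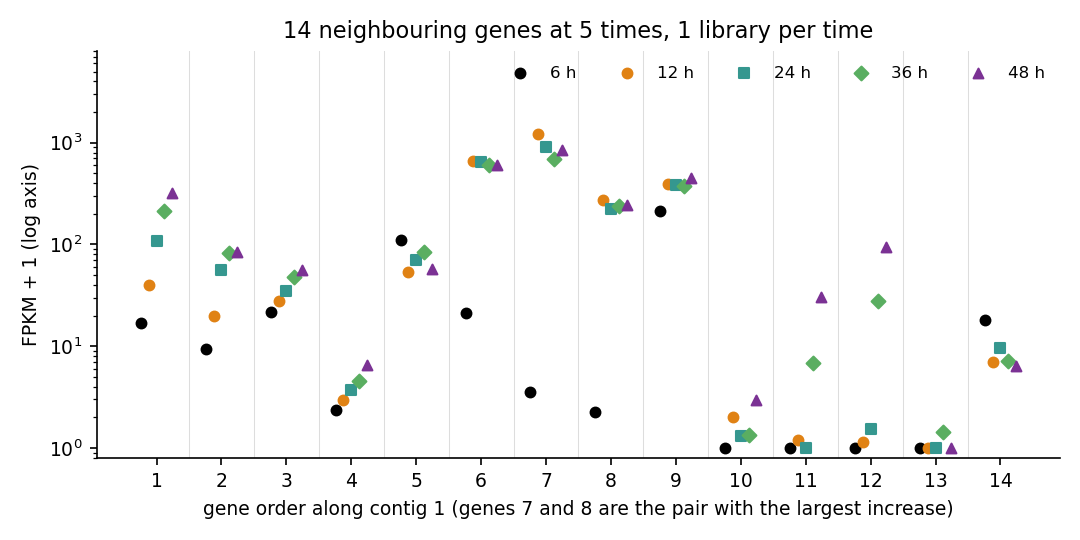
FPKM + 1 (log axis) of 14 listed genes in order along contig 1, around the pair with the largest increase, at 6, 12, 24, 36 and 48 h with 1 library each. Genes 6 to 8 are low at 6 h alone, while genes 11 and 12 are near 0 at 6, 12 and 24 h and higher at 36 and 48 h.

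The 2 largest decreases were in genes on different contigs. In the first, evm.model.unitig_6.59 (unitig_6, 212425 to 213654), there were 33490 fragments at 6 h and 142 at 12 h, 242-fold fewer relative to depth (205 to 288), and its level was between 4.34 and 6.44 FPKM at the 3 later times. The other, evm.model.unitig_0.36 on unitig_0 (114037 to 115932), was at 793 FPKM at 6 h against 7.60 at 12 h, and 5.52, 9.01 and 13.0 at 24, 36 and 48 h. It had 6948 fragments at 6 h and 69 at 12 h, or 103-fold fewer (81.6 to 133). Both genes were high in the 6 h library and low in the other 4 at 3 vvm, and the first was at 1473 FPKM at 48 h under 1.5 vvm while the second was at 15.3.

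The 12 largest log2 changes in each direction, among genes of at least 10 FPKM and 10 fragments, are given as a description. The restriction was set after the values were seen, and the 6 and 12 h values chose the genes, which include the 4 above. The 12 genes with the largest increase had a median FPKM of 5.77 at 6 h against 394 at 12 h, and 288, 269 and 272 at 24, 36 and 48 h. The 12 with the largest decrease had a median FPKM of 504 at 6 h against 8.45 at 12 h, and 4.62, 4.77 and 5.37 at 24, 36 and 48 h. Among these 12 the highest value in the 3 later libraries at 3 vvm was 161 FPKM, while at 6 h the range was 30.7 to 10355 FPKM. The increases were more varied later on.

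Members of the higher group differed in what followed 12 h. The gene on contig 1 from 4189517 to 4191007 went from 10.01 FPKM at 6 h to 514 at 12 h and 3000 at 24 h, and its 12 h level was thus an intermediate one. The gene on unitig_2 from 645804 to 646558 was at 20.7 FPKM at 6 h against 778 at 12 h, and 177, 2354 and 1116 at 24, 36 and 48 h, up and down between libraries. The gene on unitig_2 from 3003843 to 3005466 was at 4.31 FPKM at 6 h against 212 at 12 h, and was lower at each later time, with 116 at 48 h.

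One abundant gene was high in the 12 h library alone. The gene on unitig_6 from 2845275 to 2847581 was at 234 FPKM at 6 h against 5321 at 12 h, and 250, 71.0 and 177 at 24, 36 and 48 h. Its fragments went from 815 to 19026 between 6 and 12 h, 22.7-fold more relative to depth (21.2 to 24.4). It was the largest gain in FPKM of any gene.

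The other 4 of the 5 largest gains in FPKM were small ratios of very abundant genes. The gene on unitig_2 from 3499129 to 3499977 was at 40226 FPKM at 6 h against 45185 at 12 h, and on contig 1 the gene from 2874224 to 2876395 went from 25557 to 29183. The gene on unitig_3 from 3238295 to 3240672 was at 9406 FPKM at 6 h against 13401 at 12 h. The gene on unitig_1 from 2786289 to 2786651 was at 5365 and 8395 FPKM, from 3130 and 5018 fragments over a short span of 363 bases. None of these 4 was 2-fold apart, and 3 of them were below their 12 h level at 36 h.

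The largest losses in FPKM were mostly past 2-fold. The gene on unitig_1 from 4765051 to 4765998 was at 10355 FPKM at 6 h against 282 at 12 h, and 161, 55.6 and 67.2 at 24, 36 and 48 h, 36.7-fold fewer fragments at 12 h (34.2 to 39.3). The gene on unitig_5 from 3373369 to 3373839 was at 11982 FPKM at 6 h against 3247 at 12 h, then 4789 and 7705 at 24 and 36 h, a dip with a partial return. It spans 471 bases and had 6372 fragments at 6 h and 1792 at 12 h. The gene on unitig_2 from 2205733 to 2206150 was at 8503 FPKM at 6 h against 1206 at 12 h, then 226 and 1879 at 24 and 36 h. The gene on unitig_5 from 622360 to 623706 was at 29329 FPKM at 6 h against 21269 at 12 h, less than 2-fold apart, and at 8810 FPKM at 48 h. The fifth was the gene evm.model.unitig_6.59 already described.

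The genes lower at 12 h had been a larger part of the library at 6 h than the higher genes were at 12 h. The 631 lower genes held 11.4% of all fragments at 6 h and 2.92% at 12 h. The 681 higher genes held 2.29% at 6 h and 7.91% at 12 h. These shares were used by the choice of the genes and are given as a description.

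Grouped by level at 6 and 12 h, the balance of directions depended on which library set the level, and these values also chose the genes. Of the 298 genes at 500 FPKM or more at 6 h, 58 were lower and 8 higher at 12 h, and of the 249 at that level at 12 h, 16 were lower and 25 higher. Among the 281 genes whose FPKM averaged over 6 and 12 h was 500 or more, 40 were lower and 19 higher at 12 h. Those 40 had a median FPKM of 1412 at 6 h against 426 at 12 h, and 364, 320 and 311 at 24, 36 and 48 h. The 19 had a median FPKM of 378 at 6 h against 1285 at 12 h, and 1262, 1182 and 942 at 24, 36 and 48 h. On the same average, 5.53% were higher and 6.39% lower of 2769 genes between 50 and 500 FPKM, and 7.48% higher and 5.04% lower of 3434 genes between 10 and 50 FPKM. Below 10 FPKM the shares were 10.5% higher and 10.03% lower of 2402 genes.

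Grouped by their level in the 3 later libraries, the order was the reverse of that on the average of 6 and 12 h, except between 10 and 50 FPKM. The later values did not choose the genes, but the filter used 6 and 12 h. A gene low later entered only by reaching 1 FPKM at 6 or 12 h, and 280 genes were kept through 6 h alone and 263 through 12 h alone. Of the 2230 genes under 10 FPKM on average at 24, 36 and 48 h, 326 (14.6%) were lower at 12 h and 168 (7.53%) higher. Of the 240 genes at 500 FPKM or more at those times, 32 (13.3%) were higher and 17 (7.08%) lower. Between 50 and 500 FPKM, 269 were higher and 127 lower of 2983 genes. In the bin from 10 to 50 FPKM, 212 (6.18%) were higher and 161 (4.69%) lower of 3433 genes. Genes abundant later in the fermentation were thus more often among those higher at 12 h, and genes that were low later were more often among those lower at 12 h. The part that the filter has in the bin under 10 FPKM was not tested.

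**Figure D3:**
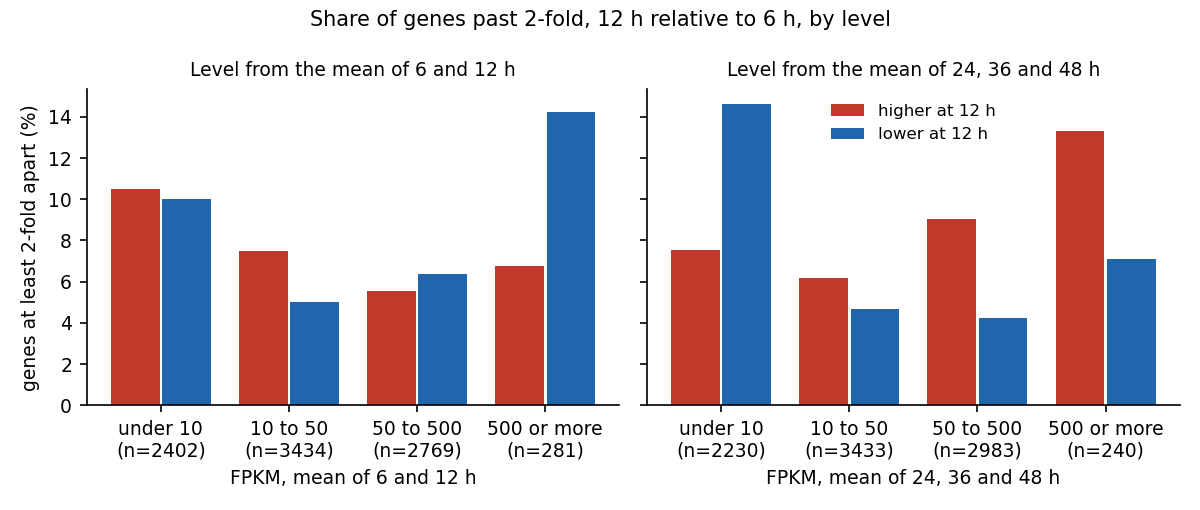
Percent of genes at least 2-fold higher or lower at 12 h than at 6 h (y axis), in bins of FPKM averaged over 6 and 12 h (left) or over 24, 36 and 48 h (right), with the number of genes under each bin. In the bin of 500 FPKM or more, lower genes are more frequent on the left (14.2% against 6.76%) and higher genes on the right (13.3% against 7.08%).

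Genes seen on one side alone were few once counting was considered. At 12 h 24 of the compared genes had more than 3 fragments where 6 h had 0, the most being 20, in the gene on unitig_6 from 1538683 to 1539507 at 6.83 FPKM. Another 24 had more than 3 fragments at 6 h and 0 at 12 h. Among these, the gene on unitig_3 from 3085429 to 3086754 stood out with 227 fragments (45.0 FPKM) at 6 h and 0 at 12, 24, 36 and 48 h. Measured against the 3 fragments that a count of 0 allows in the 12 h library, it was at least 77.7-fold lower at 12 h with the 227 fragments taken as exact, and the lower limit of the exact 95% counting interval was 62.7-fold. The gene on unitig_1 from 4496816 to 4497939 had 114 fragments at 6 h, 0 at 12 h and 2, 8 and 2 at the later times, and was at least 39.0-fold lower at 12 h by the same floor, with a lower limit of 31.2-fold by the interval.

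After 12 h the median levels of both groups were closer to those of 12 h than to those of 6 h. The genes higher at 12 h had a median FPKM of 7.32 at 6 h against 27.9 at 12 h, and 31.5, 41.6 and 39.3 at 24, 36 and 48 h. The lower genes had a median FPKM of 30.7 at 6 h against 8.21 at 12 h, and 9.65, 8.45 and 8.57 at 24, 36 and 48 h. The genes within 2-fold stayed between 29.5 and 32.2 FPKM. The first pair of values in each group was used to choose the genes, and the libraries of 24, 36 and 48 h were not.

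The genes past 4-fold showed the same shape with wider steps. The 164 higher ones had a median FPKM of 5.39 at 6 h against 41.1 at 12 h, and 49.8, 72.8 and 57.1 at 24, 36 and 48 h. The 148 lower ones had a median FPKM of 47.4 at 6 h against 4.32 at 12 h, and 5.38, 4.83 and 4.87 at 24, 36 and 48 h. A comparison of a later time with 6 h or with 12 h shares a library with the choice of these genes, so levels are given here and not counts of agreement.

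**Figure D4:**
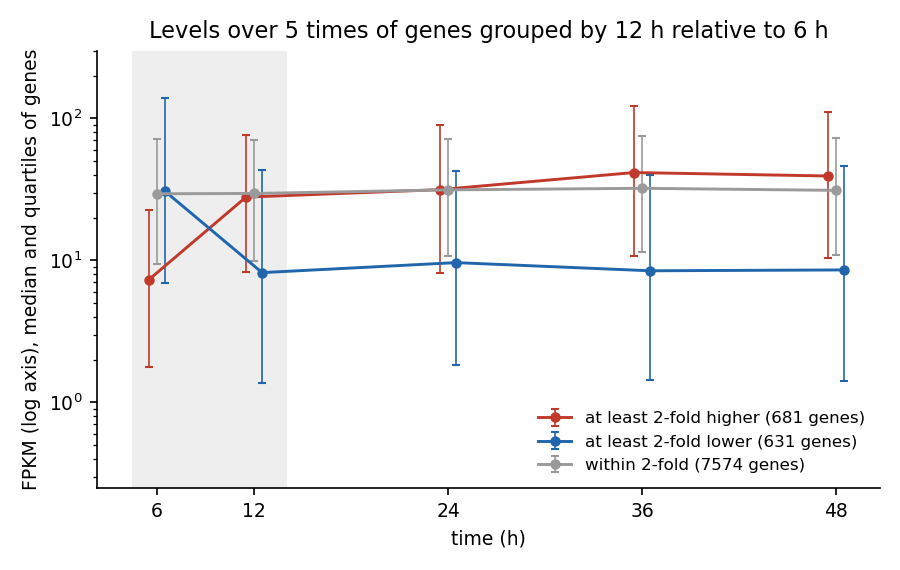
Median FPKM (points, log axis) with the quartiles of genes (bars) at 5 times, for genes at least 2-fold higher, at least 2-fold lower or within 2-fold at 12 h relative to 6 h. The shaded times chose the groups. From 24 to 48 h the median of the higher genes lies between 31.5 and 41.6 FPKM and that of the lower genes between 8.45 and 9.65.

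In the later steps, which share no library with the choice, genes past 2-fold at 12 h were more often past 2-fold again, except for lower genes in the upward step from 24 to 36 h. Between 24 and 36 h, 118 of the 681 higher genes (17.3%, exact 95% interval 14.6 to 20.4) were at least 2-fold higher at 36 h, against 4.76% of all compared genes. In the same step 47 of them (6.90%) were at least 2-fold lower, against 2.93%. Of the 631 lower genes, 57 (9.03%, 6.91 to 11.5) were again 2-fold or more lower at 36 h relative to 24 h, and 30 (4.75%) were higher, a share near the 4.76% of all compared genes. Genes within 2-fold at 12 h passed this step in 3.63% (higher) and 2.06% (lower) of cases. Genes that lie next to each other are not independent, which makes these intervals too narrow. Under 10 fragments at both 6 and 12 h were 98 of the higher and 106 of the lower genes. The part that low counts have in the shares of this and the last step was not tested.

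The last step was smaller and had no common direction. Between 36 and 48 h, 40 of the 681 higher genes (5.87%) were at least 2-fold higher at 48 h and 46 (6.75%) at least 2-fold lower, against 2.1% and 1.73% of all compared genes. Of the 631 lower genes, 34 (5.39%) were higher and 21 (3.33%) lower. Over 24, 36 and 48 h together, 248 of the higher genes (36.4%) had at least a 2-fold range, with the highest value at 36 h for 104 of these, 48 h for 90 and 24 h for 54. Of the 158 lower genes with such a range (25.04%), 81 were highest at 24 h. Among all compared genes 1164 (13.1%) had a 2-fold range over these 3 times. For 441 of them the 48 h library held the peak, for 368 that of 24 h and for 355 that of 36 h. The most frequent peak was thus 48 h among all such genes, 36 h among the higher ones and 24 h among the lower ones.

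The same genes were also looked up at 48 h under the lower air supply, in libraries that took no part in the choice. Of the 625 lower genes listed with the 1.5 vvm library, 267 (42.7%) were 2-fold or more higher under 1.5 than under 3 vvm, against 17.4% of all 8875 compared genes listed there, and 23 (3.68%) were at least 2-fold lower, against 2.95%. Of the 677 higher genes, 145 (21.4%) were higher and 68 (10.04%) lower. The medians of the lower genes were 8.88 FPKM at 3 vvm and 17.7 at 1.5 vvm, and those of the higher genes 39.7 and 40.7.

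The FPKM of these 2 libraries came from separate tables, and genes at low level were more often higher in the 1.5 vvm library. With 10 FPKM or more in either of these libraries, 161 of 391 lower genes (41.2%) were at least 2-fold higher at 1.5 vvm, against 14.8% of 7429, and 19 (4.86%) at least 2-fold lower, against 3.34%. Of 581 higher genes with that level, 109 (18.8%) were higher and 67 (11.5%) lower at 1.5 vvm. The FPKM values summed to 1091269 in the 1.5 vvm library and 915481 at 48 h under 3 vvm. The shares were not recomputed with both set to 1 sum. The part that level, scaling and library preparation have in these shares was not tested.

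Genes past 2-fold were spread over all 8 long contigs, each with at least 100 genes, which together held 8868 of the compared genes. The share of higher genes lay between 5.65% on unitig_1 and 9.85% on unitig_3, and the share of lower genes between 6.14% on unitig_0 and 8.78% on unitig_6. Higher genes outnumbered lower ones on contig 1 (98 and 76), unitig_3 (94 and 62), unitig_4 (91 and 62), unitig_0 (109 and 102) and unitig_5 (72 and 70). Lower genes were more numerous on unitig_1 (89 and 72), unitig_2 (97 and 76) and unitig_6 (73 and 63).

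Next to a gene past 2-fold, the following gene was often past 2-fold in the same direction, where order along the contig was taken over the compared genes. Of 675 higher genes with a following gene on the contig, 136 (20.1%) were followed by a higher gene, where 7.66% of all genes were higher, and 43 (6.37%) by a lower one. Of 630 lower genes, 113 (17.9%) were followed by a lower gene, where 7.10% of all were lower, and 37 (5.87%) by a higher one. Over 8866 neighbouring pairs the Pearson correlation of the log2 change was 0.19 and the Spearman correlation 0.16, with both genes of a pair measured in the same 2 libraries. At 2 genes apart the Pearson correlation was 0.07, at 5 apart 0.03, and at 10 apart 0.02.

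Most such neighbours came in pairs. Of the higher genes, 446 stood alone, and there were 71 runs of 2, 21 of 3 and 6 of 4 genes. Of the lower genes, 433 stood alone, with 71 runs of 2, 8 of 3 and 3 of 4. Runs of at least 5 compared genes in a row in one direction numbered 4, of which 1 was higher and 3 were lower at 12 h. With 5 FPKM added in place of 1, the runs left were 2 lower ones and no higher one, and with at least 10 fragments required 1 higher and 2 lower ones were left.

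The longest run was on contig 1 from 3043016 to 3057066 and held 8 lower genes in 14.1 kb. Their median FPKM was 498 at 6 h against 37.3 at 12 h, and 28.0, 28.8 and 21.5 at 24, 36 and 48 h. The highest at 6 h was the gene from 3046792 to 3047450, at 1358 FPKM and then 69.3 at 12 h and 57.7 at 48 h. The gene from 3053465 to 3054383 was at 1202 FPKM at 6 h against 55.8 at 12 h, then 12.5 at 48 h. The largest ratio was in the gene from 3049674 to 3051378, with 536 FPKM at 6 h against 9.31 at 12 h, then 4.31 at 48 h, 57.2-fold fewer fragments at 12 h (45.3 to 73.3). The smallest well counted difference was in the gene from 3051716 to 3053436, at 69.7 and 26.1 FPKM and then between 25.2 and 28.8 at the later times. The first gene of the run, of 297 bases, rested on 1 fragment at 6 h and none later at 3 vvm.

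The second long run lay on unitig_1 from 4770424 to 4799319, where 7 lower genes spanned 28.9 kb. After the first of them lay 1 listed gene that was too low to be compared, from 4773097 to 4775047, with 0 fragments at 6 h and 2 at 12 h. The other 3 runs held no such gene. The 7 genes had a median FPKM of 174 at 6 h against 13.9 at 12 h, and 5.35, 6.99 and 2.50 at 24, 36 and 48 h, so that the median was lower at 48 h than at 12 h. The first gene, from 4770424 to 4772187, was at 1144 FPKM at 6 h against 178 at 12 h, then 114 and 28.2 at 24 and 48 h, in steps. The gene from 4791202 to 4792739 was at 256 FPKM at 6 h against 3.10 at 12 h, then 1.01 at 48 h, with most of the difference in place by 12 h. The gene next to it, from 4793125 to 4799319, was at 73.7 FPKM at 6 h against 2.75 at 12 h. One gene of the run had 5 fragments at 6 h and 1 at 12 h. The very abundant gene from 4765051 to 4765998, with 10355 FPKM at 6 h, lay 4.43 kb before this run.

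The other lower run held 5 genes on unitig_1 from 4494285 to 4502926, with a median FPKM of 25.3 at 6 h against 2.12 at 12 h, and 0.946, 2.48 and 1.99 at 24, 36 and 48 h. Its gene from 4500316 to 4501059 was at 145 FPKM at 6 h against 29.2 at 12 h, and 31.8, 61.7 and 79.0 at 24, 36 and 48 h, unlike the 4 others, which were under 10 FPKM at each of those later times. One of its genes had 8 fragments at 6 h and 1 at 12 h.

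The single higher run held 6 genes in 13.0 kb of contig 1, from 4186899 to 4199936. Their median FPKM was 6.78 at 6 h against 76.1 at 12 h, and 150, 177 and 163 at 24, 36 and 48 h. Besides the gene from 4189517, with 514 FPKM at 12 h, the gene from 4193206 to 4194711 was at 1.95 FPKM at 6 h against 53.5 at 12 h, then 326 and 239 at 24 and 48 h. Of the 5 libraries at 3 vvm, that of 24 h had the highest value of both. The outermost genes of the run went from 34.9 to 98.8 FPKM (4186899 to 4188164) and from 78.5 to 178 FPKM (4198521 to 4199936). All 6 genes had at least 13 fragments at 12 h. This run and the block from 4269213 lie 69.3 kb apart on contig 1.

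**Figure D5:**
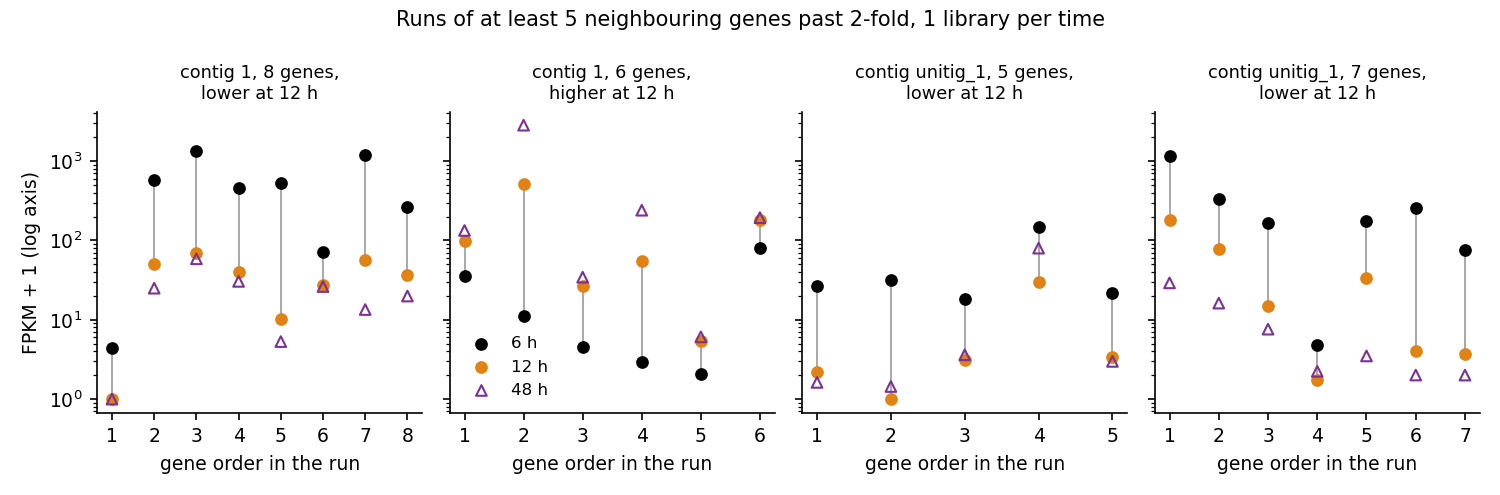
FPKM + 1 (log axis) of each gene in the 4 runs of at least 5 genes, in order along the contig, at 6 h, 12 h and 48 h with 1 library each. In the 3 lower runs the 6 h value lies above the 12 h value for each gene, and in the higher run of 6 genes below it.

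Shorter blocks of 4 genes added 6 higher and 3 lower ones. Between 4683019 and 4693711 on unitig_2, the 4 genes had a median FPKM of 7.01 at 6 h against 43.0 at 12 h, and 81.0, 116 and 158 at 24, 36 and 48 h, higher at each time than at the one before. On unitig_4 from 935016 to 949845 it was 19.3 FPKM at 6 h against 76.9 at 12 h, then 54.6 at 48 h, and on the same contig from 3960451 to 3976071 it was 16.8 FPKM at 6 h against 56.7 at 12 h, and 133, 66.2 and 86.2 at 24, 36 and 48 h. In the other direction, 4 genes between 402830 and 428970 on unitig_5 had a median FPKM of 127 at 6 h against 30.9 at 12 h, and 49.6, 11.9 and 13.4 at 24, 36 and 48 h. Between 3604245 and 3615254 on contig 1, 4 lower genes had a median FPKM of 10.4 at 6 h against 1.57 at 12 h, and under 1 later.

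Near the ends of the long contigs both directions were more frequent than elsewhere. Near ends, meaning no more than 100 kb from base 1 or from the last listed gene, lay 315 genes, of which 61 (19.4%, exact 95% interval 15.1 to 24.2) were lower and 39 (12.4%, 8.95 to 16.5) higher at 12 h. Elsewhere 6.66% of 8553 genes were lower (6.14 to 7.21) and 7.44% higher (6.89 to 8.01). The intervals take genes as independent, which neighbours are not, and the 315 genes lie at only 16 ends. They are therefore too narrow. The ends were not alike: lower genes outnumbered higher ones at 9 of the 16 ends, higher ones outnumbered lower ones at 6, and 1 was even. Both ends of unitig_6 held lower genes for the most part (6 lower and 0 higher, and 8 lower and 1 higher), as did both ends of unitig_0 (3 and 0, and 7 and 0). Both ends of unitig_3 held mostly higher genes (5 higher and 1 lower, and 4 and 1).

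The level of genes near ends was lower: the median over genes of the higher FPKM was 9.40, against 34.1 elsewhere. With 10 FPKM or more required in either library, 20.0% of 155 genes near ends were lower and 19.4% higher, against 6.12% and 6.80% of 6573 genes elsewhere. Within 50 kb of an end 9.57% were higher and 22.6% lower, against 7.59% and 6.91% elsewhere, so higher genes were then only slightly more frequent. Within 200 kb the shares were 13.2% and 15.3%, against 7.12% and 6.39%. The direction near ends therefore depended on the level of the genes included and on the window. In each of these settings both directions were more frequent near ends than elsewhere, by differing amounts. Genes near ends were not matched to the others by level or span, and the part of these was not tested. The sources used here do not say whether a contig end is also the end of a chromosome.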

How the data were processed

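TopHat2 2.0.9 and Cufflinks 2.1.1 were used, per the submitters' processing notes. The sources used here do not give the genome build, annotation or strand setting. FPKM values were used as the authors deposited them. In short genes they exceeded the fragments divided by span and depth, so a rank by FPKM favoured short genes. Columns with count in their header hold a deposited signal that was scaled by the authors to 1 total per table. Division by the step of each column gave whole fragments, within 0.1, for at least 99.9% of values. No count test of 12 h against 6 h was run on them, because 1 library per group leaves no residual degrees of freedom. FPKM per fragment at 12 h over 6 h had a median ratio of 0.927 in spans up to 300 bases and 0.971 over 4000 bases. These ratios used 8 and 486 genes with at least 10 fragments in both libraries. The greater depth at 12 h by itself puts the ratio below 1.

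Genes were kept at 1 FPKM or more in either library, compared as log2(FPKM + 1) and counted at 2-fold. The rule for named genes took the 2 largest log2 changes in each direction where either library reached 10 FPKM; other genes, given by position alone, are the 5 largest gains and losses in FPKM, members of runs, and genes chosen after their values were seen. Starts were raised by 1. Intervals are exact 95% binomial (Clopper-Pearson) and, like the floor of 3 fragments for a count of 0, cover counting error only. Recovered fragments of the most abundant genes may be off by 1. The second table has 4 value columns that match no label, which were not used. It also repeats the 24 h library, and those columns were not used either. Steps were tested on simulated data. Python 3.11.15, pandas 2.3.3 and scipy 1.17.1 were used. The genes, rules and groups were chosen with earlier results of these data known. Alternatives were other pseudocounts, filters, scalings, run lengths and end windows.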

Additional observations from a re-analysis of the deposited data

How the results depend on the processing

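No paired analysis was possible because each group has 1 library and no test was run; for the same reason no replicate could be left out. Of 74 recomputed counts, medians and shares, 47 stayed close to the reported value (a count within 1.5 times, a median within 0.1, a share within its 95% interval). With 5 FPKM added in place of 1, 404 genes were higher and 379 lower at 12 h, 2 runs were left, shares near ends were 8.25% higher and 9.84% lower, and shares elsewhere 4.38% and 4.07%. Under it, the genes higher at 12 h passed the 24 to 36 h step as lower in 4.95% and the 36 to 48 h step as higher in 3.96%; the genes lower at 12 h were higher in 2.37% and lower in 6.33% at 36 h, and higher in 2.90% and lower in 1.85% at 48 h. Of all compared genes, 2.67% were then higher and 1.56% lower at 36 h, and 1.01% higher and 0.720% lower at 48 h. With 0.1 FPKM added, 858 genes were higher and 799 lower.

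With values set to a common FPKM sum, the median log2 change was 0.11, shares elsewhere than near ends were 9.32% higher and 5.40% lower, and 12.8% of the lower genes were lower again at 36 h than at 24 h, against 3.41% of all compared genes under that scaling. With genes of at least 10 FPKM, 19.4% near ends were higher, and elsewhere 6.80% were higher and 6.12% lower. Runs of at least 4 genes numbered 13. For genes past 4-fold, the higher ones were higher in 24.4% and lower in 11.6% at 36 h and higher in 11.6% at 48 h, and the lower ones were lower in 12.8% at 36 h and higher in 9.46% and lower in 6.08% at 48 h; fewer genes entered these shares. The 4 genes with the largest log2 changes, 2 in each direction, kept their direction under each alternative. They were chosen for the size of their change, which these alternatives could not reverse, so this is no check of them. Of their recomputed log2 changes, 28 stayed within 1.5-fold of the reported value and 4 did not. The cause of the shifts under these alternatives was not tested. With 10 fragments as a minimum, added after the data were seen, 3 runs were left, and with 1 gap allowed 5.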
